A study of Mus musculus with 8 samples.

Results

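Foxl2, a forkhead transcription factor gene, and Foxl2os, a noncoding RNA gene that neighbours it on the opposite strand, were described in sorted GFP-positive cells of mouse cortex and lung at E13.5. The members were the probe sets annotated to Foxl2 or Foxl2os alone, 3 of 45037 (2 for Foxl2 and 1 for Foxl2os), and they stand for 2 of 18193 measured genes. The genes were chosen by their measured difference between cortex and lung, so every cortex-lung value of Foxl2 and Foxl2os is a description without a test. The embryos were homozygous Tie2-GFP transgenic mice, whose fluorescent protein is driven by the Tek (Tie2) promoter, active in endothelium. Cortex was dissected free of meninges and choroid plexus. Each tissue had 4 arrays, each made from 1 pooled litter (10 to 13 embryos), and transgene and age were the same in both tissues. Tek is also active in some blood cells, so GFP does not mark endothelium alone.

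Foxl2 encodes a DNA-binding protein best known from the ovary, where it maintains granulosa cell identity and acts with SMAD and steroid receptor proteins on follistatin, aromatase and other genes. It also acts in the gonadotropes of the pituitary and in the mesenchyme around the eye, and mutations in its human counterpart cause an eyelid syndrome with ovarian failure. In brain vessels it is known as a member of a group of transcription factors, with Foxf2, Foxq1 and Lef1, whose transcripts are enriched in brain over other endothelium. Foxl2os is transcribed away from Foxl2, and its function is not well known.

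The stretch between the RefSeq start sites of both genes is shown because it is all the DNA that separates these transcripts. In build GRCm38.p6 it is 296 bases long, at chr9:98955311-98955606, given on the plus strand, on which Foxl2 lies. Foxl2os starts at the base before its left end and runs to the left, and Foxl2 starts at the base after its right end. Capitals mark CpG dinucleotides.

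Foxl2os-Foxl2 stretch: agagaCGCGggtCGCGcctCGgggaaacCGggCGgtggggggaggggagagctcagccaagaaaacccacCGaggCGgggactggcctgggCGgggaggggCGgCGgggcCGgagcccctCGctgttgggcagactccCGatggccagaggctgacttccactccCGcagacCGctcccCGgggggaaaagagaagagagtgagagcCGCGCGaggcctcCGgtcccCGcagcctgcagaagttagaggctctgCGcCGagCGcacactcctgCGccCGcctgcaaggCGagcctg

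The stretch held 29 CpG dinucleotides at a GC content of 72.0%. The RefSeq promoter windows of the genes, 250 bases before to 50 bases after each start, shared 204 of their 300 bases. The Foxl2 window had 27 CpG and the Foxl2os window 28, against a median of 7 over 32851 mouse promoter windows of that length, of which 84.5% and 85.8% had fewer. Motifs searched on both strands of these windows were GTAAACA of forkhead proteins, CTTTGA of TCF/LEF, TATAAA of the TATA box, ACAATG of SOX proteins, AGAGGAA as an ETS-like sequence and CAGCTG of E-box proteins. None of these letter strings occurred in either window. They occurred in 3.65% (forkhead), 16.0% (TCF/LEF), 13.6% (TATA), 12.6% (SOX), 10.4% (ETS-like) and 16.3% (E-box) of all windows. The absence says only that these letters are not in these bases.

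The deposited values were log2 intensities after RMA, with array medians of 6.59 to 6.72. Such values carry no detection call. As a level to compare with, the means of 39 olfactory receptor genes, which are not known from either tissue, had a median of 4.13 and a 95th percentile of 5.49. Tissue was taken from title, source name and tissue label, and 4 samples (both numbered 19 and both numbered 18) have a description that names the other tissue. The neural gene Neurod6 lay at 11.46 to 11.85 on the arrays titled cortex and at 3.19 to 4.35 on those titled lung, in step with the titles. Without those 4 arrays the difference of Foxl2 was 3.30 and that of Foxl2os 5.13 log2 units, on 2 arrays per tissue.

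Foxl2os was high in cortex cells and at the level of the olfactory receptor genes in lung cells. Its probe set 1456552_at read 9.22 on cortex array 72, 10.61 on cortex 22, 10.33 on cortex 19 and 8.65 on cortex 18. On the lung arrays it read 4.26 (72), 5.30 (22), 4.48 (19) and 4.23 (18). The tissues did not overlap, and 3.34 log2 units separated the lowest cortex array from the highest lung array. The mean was 9.70 ± 0.93 in cortex and 4.57 ± 0.50 in lung (log2, SD, n = 4 each), a difference of 5.13 log2 units or 35.1-fold. Among the probe sets of its own array it stood between percentiles 72.5 and 89.4 in cortex and between 9.37 and 28.2 in lung.

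Foxl2 itself was higher in cortex by its brighter probe set, 1456410_at, which gives the gene value. It read 7.50 on cortex array 72, 9.33 on cortex 22, 9.43 on cortex 19 and 6.65 on cortex 18. On the lung arrays it read 5.10 (72), 5.12 (22), 5.07 (19) and 4.90 (18). Cortex arrays 22 and 19 were high and 72 and 18 lower, while the lung arrays spanned 0.22 log2 units and all lay under the 95th percentile of the olfactory receptor genes. The tissues did not overlap, with a gap of 1.52 log2 units. The mean was 8.23 ± 1.38 in cortex and 5.05 ± 0.10 in lung (SD, n = 4 each), a difference of 3.18 log2 units or 9.04-fold. RMA compresses low intensities, so folds against the lung values may understate the difference in RNA. Of all genes, 12.5% had every cortex array above every lung array, and 12% the reverse. Nothing is read from that share for Foxl2 and Foxl2os, since it comes from the contrast that chose them.

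The other Foxl2 probe set, 1444002_at, showed no such pattern. It read 3.50, 3.97, 3.70 and 3.48 on cortex arrays 72, 22, 19 and 18, and 3.94, 3.86, 3.78 and 3.55 on the lung arrays in the same order. The tissues overlapped, with means of 3.66 ± 0.23 and 3.78 ± 0.17, a difference of -0.12 log2 units. All 8 values were below the median of the olfactory receptor genes, between percentiles 1.59 and 9.07 of their arrays. The description of Foxl2 as higher in cortex therefore rests on 1 of its 2 probe sets, and with their mean the difference was 1.53 log2 units. Which part of the transcript each probe set covers was not analysed here. For the same reason the strand that each probe set reads was not checked, and signal of Foxl2 and of Foxl2os was separated only as far as the annotation separates their probe sets.

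**Figure D1:**
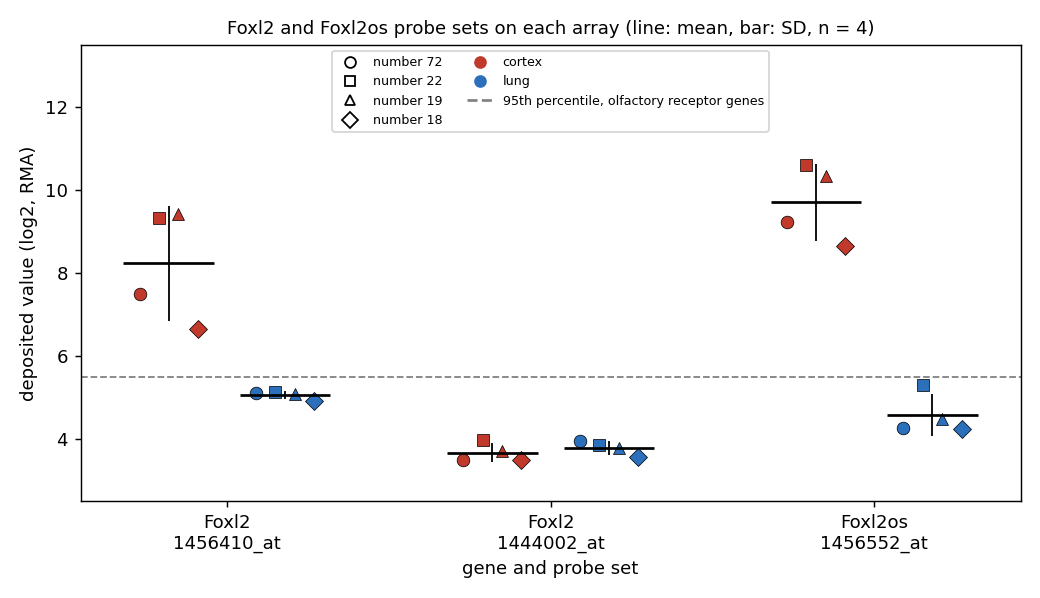
Deposited log2 value (vertical axis) of the 3 probe sets of Foxl2 and Foxl2os (horizontal axis) on each array, with cortex in red and lung in blue, symbols for the sample number, lines for the mean and bars for the SD over 4 arrays. The dashed line is the 95th percentile of the olfactory receptor genes, 5.49; the cortex values of 1456410_at and 1456552_at lie above it and all other values below.

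Across the cortex arrays, Foxl2 and Foxl2os were high and low together with general endothelial genes. The mean of 27 pan-endothelial genes, such as Pecam1, Cdh5 and Kdr, was 11.46 on cortex 19, 11.31 on cortex 22, 10.01 on cortex 72 and 9.60 on cortex 18. Foxl2 had the same order, and Foxl2os differed from it only in the order of 22 and 19. Tek, whose promoter drove the sorting marker, read 12.38, 12.41, 11.26 and 10.73 on the same arrays (19, 22, 72, 18). Fewer endothelial cells and less RNA per endothelial cell cannot be told apart in such bulk samples.

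Foxl2os kept a near-constant distance to the pan-endothelial mean in cortex. Its value relative to that mean was -0.80 on cortex 72, -0.70 on 22, -1.13 on 19 and -0.95 on 18, an SD of 0.19 against 0.93 for its own values. Foxl2 relative to the same mean was -2.52 on 72, -1.98 on 22, -2.04 on 19 and -2.95 on 18, an SD of 0.45 against 1.38. The distance of Foxl2 was wider on the arrays with the lower endothelial mean, and the cause was not tested.

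The lung arrays had pan-endothelial means of 11.30 to 11.84, with both members low. The tissues overlapped in this mean, since cortex 19 and 22 lay above lung 18, and the averages were 10.60 ± 0.93 in cortex and 11.65 ± 0.24 in lung. Relative to the pan-endothelial mean, Foxl2 lay at -2.37 ± 0.45 in cortex and -6.61 ± 0.15 in lung, a difference of 4.24 log2 units. Foxl2os lay at -0.89 ± 0.19 and -7.09 ± 0.46, a difference of 6.19 log2 units (SD, n = 4 each). This scaling moves the median of all genes from -0.09 to 0.97 log2 units towards cortex. It moves every gene of an array by the same amount, so p-values under it do not measure the spread of single genes alone.

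**Figure D2:**
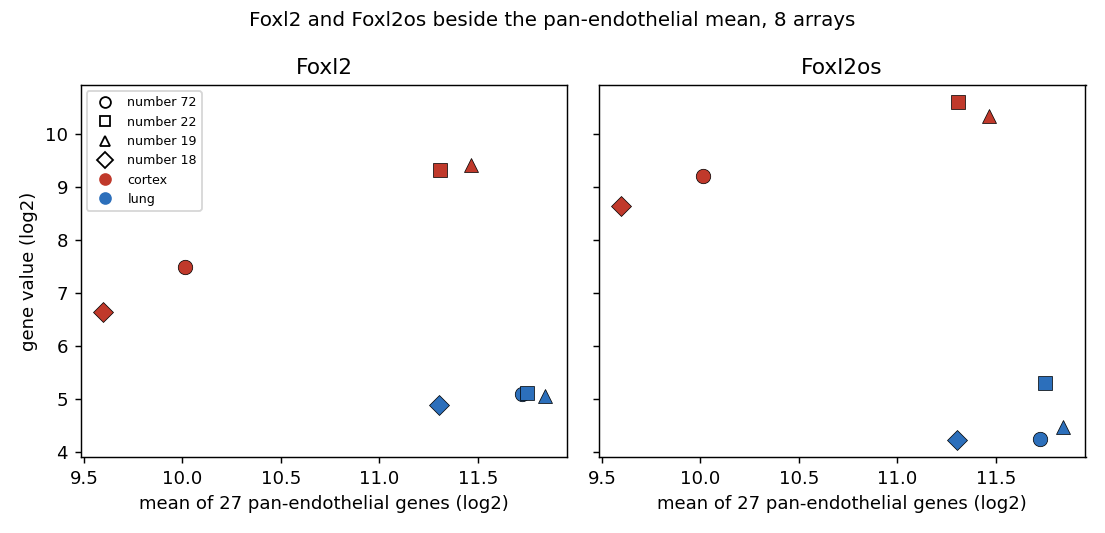
Log2 gene value of Foxl2 (left) and Foxl2os (right) against the mean log2 value of 27 pan-endothelial genes on the same array, one point per array, red for cortex and blue for lung. Within cortex both genes are high on arrays 22 and 19 and lower on 72 and 18, and on the lung arrays both are low at pan-endothelial means of 11.30 to 11.84.

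The deviations of each array from its tissue mean were set side by side over the 8 arrays, as a description; all genes of an array share the same RNA. Foxl2 and Foxl2os correlated at r = 0.89. The median r with Foxl2 was 0.94 over the 27 pan-endothelial genes (0.75 to 0.996), against -0.12 over all 18193 genes. With Foxl2os the medians were 0.83 and -0.14. Tek correlated at 0.96 with Foxl2 and 0.90 with Foxl2os. The lung arrays of Foxl2 vary little, so these values rest mainly on the 4 cortex arrays.

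Markers of other cells differed in how they moved with the members. Neural markers, from neurons and their progenitors, had a median r of -0.33 with Foxl2 and -0.41 with Foxl2os over 17 genes. All 17 had a higher mean in cortex, and their summed level was 15.26 to 15.86 in cortex and 12.48 to 12.87 in lung (log2 of the sum). In lung, 8 of them lay at or under the 95th percentile of the olfactory receptor genes, among them Tubb3, Sox2 and Neurod6. Their part in the cortex-lung differences given here was not tested. Leukocyte and microglia markers had a median r of 0.63 with Foxl2 (5 of 6 genes above 0) and 0.48 with Foxl2os, and a mean level of 7.04 ± 1.03 in cortex and 5.50 ± 0.41 in lung. Their summed level was 8.35 to 11.78 in cortex and 7.95 to 8.83 in lung, Itgam was dim in both tissues, and Ptprc and Cx3cr1 were dim in lung. Their part was not tested either.

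The remaining marker lists had medians between -0.35 and 0.39 with Foxl2. Pericyte and smooth muscle markers (11 genes) gave 0.14, fibroblast and meningeal markers (12 genes) 0.04, choroid plexus markers (7 genes) -0.19, erythroid markers (5 genes) -0.35 and lung epithelial markers (6 genes) 0.39. The first of these lists had a mean level of 7.08 ± 0.12 in cortex and 7.80 ± 0.68 in lung, and the fibroblast and meningeal list 6.20 ± 0.25 and 7.70 ± 0.70. Of the latter, Lum, Slc6a13 and Foxd1 lay at the level of the olfactory receptor genes in both tissues, and Aldh1a2 and Ogn did so in cortex. Choroid plexus markers had array means of 6.37 to 7.59 in cortex and 6.20 to 6.55 in lung, and 5 of the 7 had a higher mean in cortex. Their summed level was 10.60 to 13.32 in cortex and 11.68 to 12.05 in lung (log2 of the sum). Folr1 was dim in both tissues, Kl in cortex and Foxj1 in lung. The part of choroid plexus cells was not tested.

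Genes whose profile over the 8 arrays was most like that of Foxl2 were Adm, the vasodilator peptide adrenomedullin (r = 0.988), Fam13a (0.984), the protease gene Ctsw (0.981), and the amino acid transporters Slc7a1 (0.980) and Slc38a3 (0.977). All 5 had higher means in cortex, which the choice by r over arrays of both tissues favours. Adm read 11.54, 12.34, 12.65 and 11.06 on cortex 72, 22, 19 and 18, and 9.43 to 9.83 on the lung arrays. Slc38a3, a glutamine transporter, read 9.46, 10.81, 10.73 and 8.43 in cortex and 6.50 to 7.66 in lung. Foxl2os stood at r = 0.958, rank 31 among 12758 genes above the dim level.

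By deviations from the tissue means alone, a measure that leaves out the cortex-lung difference, the nearest genes were the signal transducer gene Stat5a (r = 0.997), the endothelial surface protein gene Ecscr (0.997), Tmem252 (0.996), the ephrin gene Efna1 (0.996) and the phosphatase gene Ppm1f (0.995). Ecscr is a member of the pan-endothelial list. All 5 had lower means in cortex than in lung, such as Stat5a at 8.27 ± 0.91 and 10.41 ± 0.09. They thus resembled Foxl2 in how the cortex arrays differed among themselves and not in the contrast of tissues. Foxl2os ranked 540 of 12758 by this measure.

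The genomic neighbours of Foxl2 were compared between the tissues on both of its sides. The 8 nearest measured genes on each side were taken in the order of the RefSeq table (GRCm38.p6). Of these 16, 4 rose in cortex, 1 rose in lung and 11 were not called (limma, adjusted p under 0.05 over all genes). Over all 18193 genes, 18.1% were called, 10.4% with cortex higher and 7.71% with lung higher. The median difference of the 16 was 0.14 log2 units, against -0.09 over all genes. All 8 genes beyond Foxl2 had a higher mean in cortex, by 0.09 to 1.11 log2 units, and 3 of them were called. Beyond Foxl2os, 2 of 8 had a higher mean in cortex and 6 a higher mean in lung, with 1 called in each direction. The difference between the sides was not tested.

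The genes next to the pair did not pass. Faim, an inhibitor of Fas-driven apoptosis and the first measured gene beyond Foxl2, read 9.82, 9.46, 9.74 and 9.45 on cortex 72, 22, 19 and 18 and 9.26, 8.21, 8.74 and 9.16 on the lung arrays. Its tissues did not overlap, and its means of 9.62 ± 0.19 and 8.84 ± 0.48 differed by 0.77 log2 units (limma adjusted p = 0.0578). It passed without lung 72 (0.91 log2 units, adjusted p = 0.0377) and under 2 other settings. Prr23a3, the first measured gene beyond Foxl2os, was dim at 4.04 ± 0.13 and 4.27 ± 0.29 (adjusted p = 0.398). Gm1123 (adjusted p = 0.65) and the lipid kinase gene Pik3cb (adjusted p = 0.282) followed Faim without a call.

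Farther out, the calsyntenin gene Clstn2, a synaptic adhesion protein, rose in cortex, at 8.17 ± 0.48 against 4.57 ± 0.86 (3.59 log2 units, SE 0.43, adjusted p = 0.000582). With the mean of its probe sets the difference of Clstn2 was 2.40 log2 units, still called. The small GTPase gene Mras rose by 1.11 log2 units (adjusted p = 0.00468) and the centrosomal protein gene Cep70 by 1.11 (adjusted p = 0.0057). The call of Armc8, a subunit of a ubiquitin ligase complex (0.82 log2 units, adjusted p = 0.048), was lost on leaving out cortex 72, 22 or 18 or lung 22, 19 or 18, singly (0.69 to 0.93 log2 units). The retinol carrier Rbp2 was the neighbour that rose in lung, at 7.29 ± 0.71 against 5.52 ± 0.15 (adjusted p = 0.00599). The coatomer gene Copb2 (-0.38 log2 units, adjusted p = 0.0664), Mrps22 (adjusted p = 0.84), Nmnat3 (0.413), Esyt3 (0.116), Dbr1 (0.838) and the noncoding 4930579K19Rik (0.618) and 4921534H16Rik (0.62), the latter lying within Clstn2, were not called. Neural markers were higher in cortex beside these genes, as given above, and their part was not tested. The 16 had a median deviation correlation of -0.05 with Foxl2, and the highest was 0.69. The scaling to the pan-endothelial mean called 7 of them towards cortex and 0 towards lung, with Rbp2 at -0.71. Over all genes this scaling called 3624 towards cortex and 161 towards lung, against 1888 and 1403 without it. The scaling thus raised the number of calls towards cortex over all genes as well as among the neighbours. The mean of a gene's probe sets ended the call of Mras (adjusted p = 0.124).

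**Figure D3:**
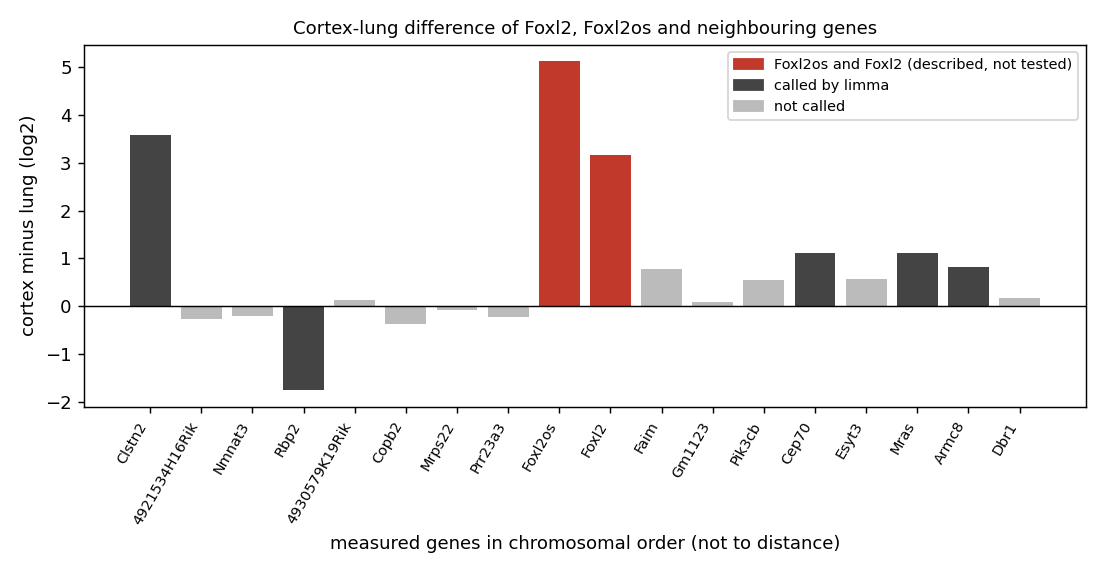
Cortex minus lung difference in log2 units (vertical axis) for Foxl2os and Foxl2 in red and the 8 nearest measured genes on each side in chromosomal order (horizontal axis), dark grey where limma called the gene and light grey where not. Foxl2os (5.13) and Foxl2 (3.18) stand between neighbours without a call, and Clstn2 (3.59) and Rbp2 (-1.76) lie farther along.

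Among the other forkhead genes, 7 of 36 passed the test and 29 did not, against the share of 18.1% over all genes. The 7 were split into 3 towards cortex and 4 towards lung. The median of the 36 was -0.08 log2 units, and 23 of them had means above the dim level. Foxf2, a regulator of pericytes and brain vessels, read 7.95, 9.58, 8.99 and 7.51 on cortex 72, 22, 19 and 18 and 6.90, 4.81, 5.48 and 4.32 in lung. Its tissues did not overlap (3.13 log2 units, SE 0.62, adjusted p = 0.00927). That value is from its brightest probe set, and with the mean of its probe sets the difference was 1.48 log2 units (limma adjusted p = 0.0155). Foxq1 read 8.28, 9.86, 9.95 and 8.38 in cortex and 6.49 to 7.47 in lung (2.12 log2 units, SE 0.43, adjusted p = 0.0103). With the mean of its probe sets the difference of Foxq1 was larger, 2.98 log2 units. For both, arrays 22 and 19 were the high cortex arrays, as for Foxl2. Their deviations correlated with those of Foxl2 at 0.65 for Foxf2 and 0.87 for Foxq1.

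The third forkhead gene towards cortex, Foxh1, a SMAD partner, differed by 0.77 log2 units at low levels, 5.78 ± 0.27 against 5.01 ± 0.35 (adjusted p = 0.0387). It was not called when cortex 72, 19 or 18 or lung 72, 22 or 19 was left out singly (0.63 to 0.83 log2 units). Towards lung lay Foxc2, a factor of mesenchyme and lymphatic vessels, at 10.58 ± 0.67 against 5.86 ± 0.34 (adjusted p = 3.3e-05). Foxf1, a factor of lung mesenchyme and endothelium, was higher in lung at 10.69 ± 0.88 against 6.62 ± 1.01 (adjusted p = 0.00151). Foxo1, an insulin-regulated factor, was higher in lung by 2.95-fold (adjusted p = 0.0269), and the difference stayed at -1.42 to -1.56 log2 units but lost its call when cortex 72 or lung 22, 19 or 18 was omitted. Scaled to the pan-endothelial mean it was -0.50, without a call. Foxl1, a gut mesenchyme factor, differed by -0.55 log2 units near the dim level, at 4.58 ± 0.05 against 5.14 ± 0.26 (adjusted p = 0.0402). It lost its call without any 1 of the arrays other than lung 22 (adjusted p 0.0784 to 0.095) and turned to 0.51 after pan-endothelial scaling. Leaving out cortex 72, lung 19 or lung 18 reduced the forkhead genes called towards lung to 2. The deviations of Foxo1 correlated with those of Foxl2 at 0.95, the highest of the 36.

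**Figure D4:**
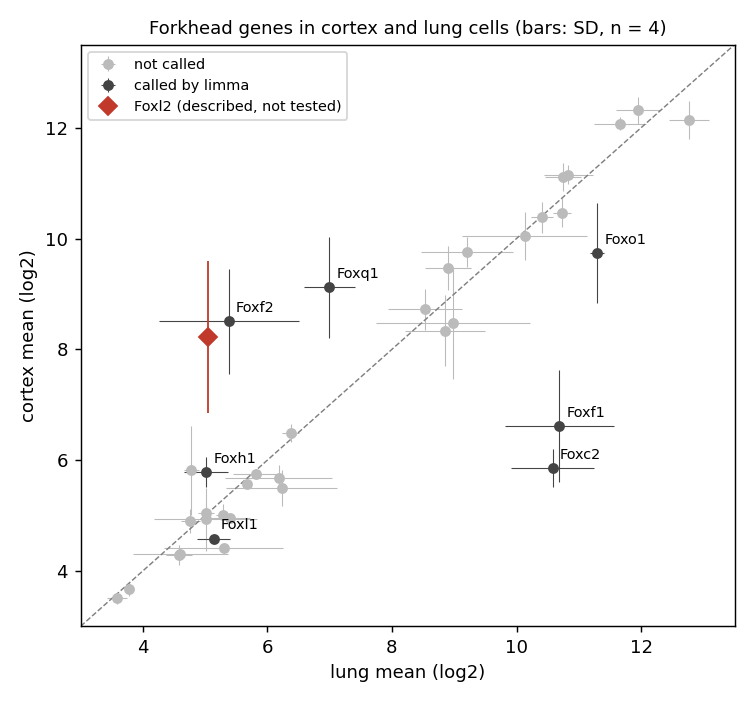
Mean log2 value in cortex (vertical axis) against lung (horizontal axis) for 36 forkhead genes and Foxl2 (red diamond), with bars for the SD over 4 arrays; the dashed line marks equal means and dark points are genes called by limma. Foxl2 lies above the line beside Foxf2 and Foxq1, with a lung mean of 5.05, and Foxc2 and Foxf1 lie below it.

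Other transcription factors known from brain endothelium were counted beside Foxl2. Of 8 measured, 2 (25%) were called towards cortex and 0 towards lung, against 10.4% and 7.71% of all genes. Their median difference was 0.96 log2 units. The called members were Foxf2 and Foxq1, both already counted among the forkhead genes. This list was chosen with earlier results of these data known, so its share is a description. At an unadjusted p under 0.05 the limma fit gave 5 towards cortex and 1 towards lung. The share of all genes at that unadjusted limit was not counted, so nothing is read from these counts. Leaving out cortex 18 raised the count towards cortex to 4, and leaving out cortex 22 gave 1 towards lung.

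Calls in 4 gene lists went in both directions. The lists held partners and modifiers of FOXL2, and genes of the gonads, the gonadotropes and the mesenchyme around the eye. None of the calls fell among the partners and modifiers. Whether the genes of the other lists act with or under FOXL2 was not tested. Of 57 measured genes in 4 lists, 15 (26.3%) were called, 6 towards cortex and 9 towards lung, against 18.1% of all genes. Their median difference was -0.05 log2 units. The aromatase gene Cyp19a1, a textbook FOXL2 target, was not analysed here. Of the 57, 42 had means above the dim level.

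None of 14 partners and modifiers of the FOXL2 protein was called by limma in either direction, against 18.1% of all genes. At an unadjusted limma p under 0.05 there were 2 towards cortex (Lats1 and Gsk3b) and 1 towards lung (Xrcc6), named after their values were seen. The share of all genes at that unadjusted limit was not counted. The kinase gene Lats1 had the largest difference, 8.56 ± 0.29 against 7.75 ± 0.74 (adjusted p = 0.157). With the mean of its probe sets the difference of Lats1 fell from 0.81 to 0.30 log2 units (limma adjusted p = 0.375). Lats1 passed after pan-endothelial scaling (1.87 log2 units, limma adjusted p = 0.0103). That scaling adds the same amount to the difference of every gene and called 3624 of all genes towards cortex, against 1888 without it. Of the 14, it called 2 towards cortex, and the mean of a gene's probe sets called 1.

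Of 20 genes of gonad determination and steroid synthesis, 7 passed towards lung, 2 towards cortex and 11 in neither direction (45% called, against 18.1% of all genes), with a median of -0.15 log2 units. Nr5a2, an orphan nuclear receptor, read 10.93 to 11.72 in lung and 6.75, 6.46, 8.57 and 6.82 on cortex 72, 22, 19 and 18 (-4.09 log2 units, adjusted p = 0.000339). Gata4, a zinc finger factor, read 7.97 to 9.61 in lung and 5.06 to 5.32 in cortex (adjusted p = 0.000229). Sox9, which FOXL2 represses in the ovary and which is also a gene of neural progenitors, was higher in cortex, at 10.68 ± 0.31 against 7.80 ± 0.18 (adjusted p = 2.44e-05). With the mean of its probe sets the difference of Sox9 fell from 2.88 to 1.003 log2 units. In that setting Gata4 went from -3.59 to -1.95 and Nr5a2 from -4.09 to -3.20, and each was still called. Neural markers were also higher in cortex, as given above, and their part in the difference of Sox9 was not tested. The count towards cortex was 1 without any 1 of the arrays other than lung 72. Scaled to the pan-endothelial mean, 4 genes passed towards cortex and 2 towards lung. Of all genes, 3624 passed towards cortex and 161 towards lung under that scaling, against 1888 and 1403 without it.

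Among 14 genes of activin signalling, follistatin and gonadotropes, the test called 3 towards cortex and 1 towards lung and left 10 uncalled (28.6% called, against 18.1% of all genes), with a median of 0.06 log2 units. The inhibin alpha subunit gene Inha rose by 2.19 log2 units (7.64 ± 0.48 against 5.46 ± 0.70, adjusted p = 0.00408) and the activin receptor gene Acvr2b by 1.67 (adjusted p = 0.00377). With the mean of its probe sets Acvr2b rose by 0.64 log2 units (limma adjusted p = 0.0154). The activin subunit gene Inhba was higher in lung, at 7.50 ± 0.79 against 5.83 ± 0.41 (adjusted p = 0.0187). With the mean of its probe sets the difference of Inhba was -0.98 log2 units, still called. Its call ended without cortex 72 (-1.52 log2 units, adjusted p = 0.0577), which left 0 members towards lung, while without cortex 19 there were 2. The median of 9 periocular mesenchyme genes was -0.19 log2 units, with 1 called in each direction and 7 not called (22.2% called, against 18.1%). Zic1, a zinc finger factor of neural tissue and meninges, rose in cortex (11.61 ± 0.30 against 6.11 ± 1.85, adjusted p = 0.00179), and the call towards lung was Foxc2. Without cortex 22 there were 2 towards cortex.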

How the data were processed

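The values deposited by the authors are log2 intensities of probe sets, in 1 column for each array. RMA and the affy package are named in the submitters' processing notes, and their versions are not given in the sources used here. Per the labels' protocols, 15 to 30 ng of RNA were amplified for an Affymetrix Mouse Genome array. Precision is limited by having 4 arrays for each tissue. All 8 columns were mapped by sample identifier.

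The 64 control probe sets were left out. Gene names came from GEO's platform annotation: of 45037 probe sets, 34945 named 1 gene, 932 several and 9160 were unnamed here. For a gene with several, the probe set of highest mean (8 arrays) was taken, which gave 18193 genes. Cortex was compared with lung in a two-sided limma test without a block (limma 3.58.1, R 4.3.3), with Benjamini-Hochberg adjustment over all genes and calls at an adjusted p under 0.05. The fit was tested on simulated data. Differences are cortex minus lung. Foxl2 and Foxl2os received no p-value.

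The members and gene lists were chosen with earlier results of these data known. Named genes were the 3 largest called members of each list (the largest where none was called), up to 5 called forkhead genes towards each tissue, all neighbours, and 5 genes by each measure of likeness, without symbols of unnamed transcripts. The likeness measures used genes with means above the 95th percentile of olfactory receptor genes. Sequences are RefSeq's (GRCm38.p6), and both members matched by symbol. The labels give 4 litters beside 8 arrays and do not say whether samples of 1 number share a litter. If the 4 are all the litters, arrays made from 1 litter each must share them. The arrays are paired by number if samples of 1 number share a litter. The main fit without a block leaves any such sharing out.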

Additional observations from a re-analysis of the deposited data

Results flagged for a closer look

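Of 104 groups of 4 arrays checked, 4 had an array far from the other 3; about 1 in 20 is reached by chance. Clstn2 read 8.878 on cortex 72, against 7.89 to 7.99 on the other cortex arrays. Nr5a2 read 8.568 on cortex 19, against 6.46 to 6.82. The dim neighbour 4930579K19Rik read 4.015 on cortex 22, against 3.44 to 3.52, and 3.531 on lung 18, against 3.48 to 3.49. No such array was found for Foxl2 or Foxl2os.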

How the results depend on the processing

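The differences of Foxl2 (2.78 to 3.70 log2 units) and Foxl2os (4.83 to 5.49) moved by less than 1 SD without any 1 array, with arrays centred on medians and on numbers 72 and 22 alone. Foxl2 moved to 4.24 and Foxl2os to 6.19 with pan-endothelial scaling, and Foxl2 to 1.53 with the mean of its probe sets and to -0.12 with the other probe set. Pan-endothelial scaling gave 3624 genes towards cortex and 161 towards lung (main 1888 and 1403), 15 and 3 in the 4 FOXL2 lists, 6 and 2 forkhead genes, 5 brain endothelial factors towards cortex, and 7 and 0 neighbours. With only numbers 72 and 22, 458 genes were called towards cortex and 197 towards lung, 1 and 5 in the FOXL2 lists, 0 and 2 forkhead genes, 0 brain endothelial factors, and 0 neighbours in either direction; 2 arrays per tissue remain there. Array quality weights gave 2233 genes towards lung, 5 brain endothelial factors towards cortex and 2 neighbours towards lung, and median centring also gave 2 neighbours towards lung. The mean of a gene's probe sets gave 2 neighbours towards cortex. The causes were not tested.

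Without each array in turn, genes called ran from 1393 to 1966 towards cortex and 956 to 1274 towards lung. The FOXL2 lists ran from 5 to 6 and 7 to 10, forkhead genes from 2 to 4 and 2 to 4, brain endothelial factors from 2 to 4 and 0 to 1, and neighbours from 3 to 5 towards cortex, with 1 towards lung throughout. The replicate block (sample number) left the members' differences as they were and gave 1801 genes towards cortex and 1342 towards lung, with 2 forkhead genes towards cortex and 3 towards lung (Foxh1 and Foxl1 not called) and 3 neighbours towards cortex (Armc8 not called). Deviations of same-numbered arrays correlated at 0.33 (72), -0.16 (22), 0.01 (19) and 0.31 (18). The highest r of each cortex array with a lung array of another number was 0.02 (72), 0.31 (22), 0.18 (19) and 0.26 (18). Numbers 72 and 18 were thus closest to their own number and 22 and 19 were not, which leaves a pairing by number undecided. Dim probe sets have no detection call, so low values have no order.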

Other observations

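In the RefSeq tables, 825 pairs of a noncoding RNA gene and a protein-coding gene had start sites within 1000 bases of each other, running apart, and 197 of them had both genes measured. This count was made after the values of Foxl2 and Foxl2os were seen, and no test was made on it. Both genes of 5 pairs were at least 2-fold higher in cortex, both of 2 pairs at least 2-fold higher in lung, and 1 pair differed by that much in opposite directions. In 3 pairs both genes were at least 8-fold higher in cortex. The share of all genes at these folds was not counted, so the counts have no background beside them. Beside Foxl2os and Foxl2 these were AI606473 with Lhx8, a forebrain factor (3.32 and 4.35 log2 units), and Gm38491 with Nr2e1, a neural progenitor factor (4.58 and 6.37 log2 units).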
